A study of Homo sapiens with 4 samples.

Results

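The 10 genes described here are SLC7A11, its antisense RNA gene SLC7A11-AS1, and 8 further genes of amino acid transport, SLC3A2, SLC7A5, SLC7A1, SLC1A4, SLC1A5, SLC38A1, SLC38A2 and SLC6A9. They were chosen by name from the 59652 genes of the count table, and the names had been selected on their level at 25 mM relative to 5 mM in these same libraries. The glucose ratios of the 10 genes are therefore given as a description, without a test. Huh7 and PLC cells are hepatocellular carcinoma lines, labelled wild type. They were cultured for 48 h in DMEM with serum and either 5 mM (low) or 25 mM (high) glucose. The study's usual medium for its lines held 25 mM glucose. Lower, higher, fell and rose describe the level at 25 mM relative to 5 mM where they concern glucose. A single rRNA-depleted library was made per line and concentration, so there were 4 libraries and no replicate of any condition.

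Amino acid transporters of the plasma membrane carry amino acids into and out of cells, and many exchange one amino acid for another. SLC7A11 (xCT) brings in cystine in exchange for glutamate, and the cysteine made from it is the limiting building block of glutathione. SLC7A11 and SLC7A5 (LAT1, large neutral amino acids) are light chains that reach the membrane only when bound to the heavy chain SLC3A2 (4F2hc, CD98). ATF4, a transcription factor made under amino acid shortage and endoplasmic reticulum stress, and NRF2, the transcription factor of the antioxidant response, are known to act on several of these genes.

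Promoter sequences are shown because the 2 factors have known recognition letters that can be looked for at the start sites of genes that were lower together. RefSeq promoters (GRCh38.p14, 250 bases before to 50 bases after a start) were at hand for 8 of the 10 genes, with 14 entries. SLC7A11 and SLC7A11-AS1 had no entry, so their promoters were not searched. The letters TGATGNAA, which ATF4 binds together with a C/EBP protein, were searched on both strands and were found in 5 entries, 1 each of SLC3A2, SLC7A1, SLC1A4, SLC1A5 and SLC38A1, against 3.62% of all 35116 promoters of this length (1270). SLC7A1 has 1 listed start, and the match began 7 bases after it. The other 4 genes have more than 1 listed start, and each has the match at 1 of them, beginning 7 bases before it in SLC1A4, 4 before it in SLC38A1, 97 before it in SLC1A5 and 37 after it in SLC3A2. Capitals mark the match, which in SLC3A2 and SLC1A4 lies on the opposite strand and so reads as the reverse complement.
SLC3A2, chr11:62881724-62881748, plus strand: gtgcaggactccTTACATCAgctcc
SLC7A1, chr13:29595662-29595693, minus strand: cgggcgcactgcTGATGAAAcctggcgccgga
SLC1A4, chr2:64989380-64989411, plus strand: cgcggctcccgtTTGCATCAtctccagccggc
SLC1A5, chr19:46784892-46784923, minus strand: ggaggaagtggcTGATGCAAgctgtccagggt
SLC38A1, chr12:46266501-46266532, minus strand: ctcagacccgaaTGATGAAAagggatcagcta

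SLC1A4 and SLC7A1 are shown at length as examples of a match next to a listed start. Each stretch runs from 250 bases before that start to the end of the match, which is in capitals. SLC38A1, whose match begins 4 bases before a listed start, is not shown at length.
SLC1A4, chr2:64989149-64989399, plus strand: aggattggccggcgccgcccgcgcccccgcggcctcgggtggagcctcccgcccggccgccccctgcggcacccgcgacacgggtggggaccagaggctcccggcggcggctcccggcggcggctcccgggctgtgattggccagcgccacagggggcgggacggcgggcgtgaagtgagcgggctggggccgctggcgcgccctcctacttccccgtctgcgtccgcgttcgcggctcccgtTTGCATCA
SLC7A1, chr13:29595674-29595938, minus strand: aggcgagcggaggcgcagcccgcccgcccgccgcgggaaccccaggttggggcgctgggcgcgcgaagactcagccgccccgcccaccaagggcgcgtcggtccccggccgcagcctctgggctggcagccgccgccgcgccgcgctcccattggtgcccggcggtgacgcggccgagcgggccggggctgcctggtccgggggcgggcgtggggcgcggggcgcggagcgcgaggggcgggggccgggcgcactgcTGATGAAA

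The core letters of the antioxidant response element, TGACNNNGC, were found in 4 entries, 1 each of SLC3A2, SLC7A5, SLC7A1 and SLC1A5, against 13.3% of all promoters (4687). None of these matches overlapped a match of TGATGNAA. The match in SLC7A5 spans the start itself, and the match in SLC3A2 begins 37 bases before 1 of its listed starts. Both are shown here because they lie nearest to a start.
SLC3A2, chr11:62881650-62881682, plus strand: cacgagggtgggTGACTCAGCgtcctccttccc
SLC7A5, chr16:87869489-87869521, minus strand: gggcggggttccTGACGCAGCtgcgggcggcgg
Neither set of letters was present in the windows of SLC38A2 and SLC6A9, and TGATGNAA was also absent from the window of SLC7A5. A match is a description of the letters and was not tested as a binding site.

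The libraries held between 16049686 (PLC, 25 mM) and 30279716 (PLC, 5 mM) counted reads, and the low-glucose library was the deeper one in PLC and the shallower one in Huh7 cells. Of 12 hepatocyte markers, 12 had an FPKM over 0.5 in both Huh7 libraries and 10 in both PLC libraries, where TTR and FOXA2 were at or near 0. Their summed FPKM was 5283 and 5486 in the Huh7 libraries at 5 mM and 25 mM, against 772 and 1661 for PLC. Of 10 markers of blood, vessel, stromal and duct cells, 3 passed in Huh7 cells (CD14, PECAM1 and SOX9) and 2 in PLC cells, with sums of 39.2 and 44.6 and of 8.24 and 9.04. The part of these markers in the differences below was not tested. FPKM, the fragments per kilobase of gene scaled to the library total, was calculated here from the deposited counts, so that levels of genes of different length can be compared. Intervals are 95% intervals of the counting error alone, since reads without molecular identifiers are not independent molecules and no replicate culture was sequenced. The intervals of glucose ratios are those of the ratio without an added constant.

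SLC7A11 lies at chr4:138164097-138242349 on the minus strand (GRCh38, 12 exons, 9645 bases). It had 8677 reads (FPKM 42.1) in Huh7 cells under low and 2428 (8.37) under high glucose, and 9098 (31.2) and 1712 (11.1) in the PLC libraries. Both low-glucose libraries were above both high-glucose libraries. The ratio of high to low, with 0.1 added to both FPKM values, was 0.201 (interval 0.190 to 0.208) in Huh7 cells, while the PLC value was 0.357 (0.337 to 0.374). Among the 9 transporter genes, the Huh7 ratio of SLC7A11 was the lowest. Whether a lower level means fewer cells with the RNA or less RNA per cell cannot be told apart in these bulk libraries.

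SLC7A11-AS1, a long non-coding RNA gene, runs in the opposite direction at chr4:138057464-138178177 on the plus strand (11 exons, 6161 bases). It had 500 reads (FPKM 3.80) in Huh7 cells under low and 91 (0.491) under high glucose, and 633 (3.39) and 69 (0.698) in the PLC libraries. It had the lowest FPKM of the 10 genes in every library, and its 2 low-glucose libraries were above its 2 high-glucose libraries. With 0.1 added the Huh7 ratio was 0.152 and the PLC ratio 0.228, and without it 0.129 (0.102 to 0.162) and 0.206 (0.158 to 0.264). The added 0.1 weighs more on this gene than on the others because its level is low.

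**Figure D1:**
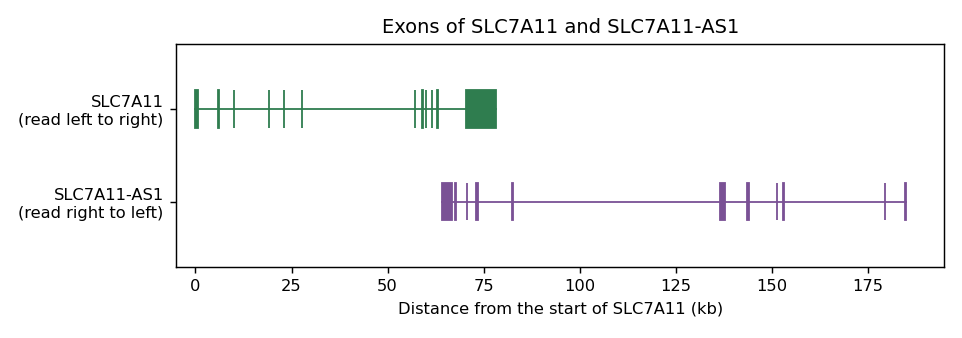
Exons of SLC7A11 and SLC7A11-AS1 as boxes and their introns as lines, against the distance in kb from the start of SLC7A11. The first exons of SLC7A11-AS1 lie beyond the end of SLC7A11, and its last exons lie inside the gene, where 865 bases fall on SLC7A11 exons.

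The overlap of the pair lies at their 3′ ends, as the map of the locus shows. Of the 6161 exon bases of SLC7A11-AS1, 865 (14.0%, touching 2 of its exons) lie on SLC7A11 exons, 2816 (45.7%) in SLC7A11 introns and 2480 (40.3%) outside SLC7A11. None of the shared bases is SLC7A11 coding sequence. The last exon of SLC7A11, chr4:138164097-138172017, has 7921 bases, which is 82.1% of the gene's exon length, and 59 of them are coding. The library kit keeps strand, but the counting is not stated to use it, so reads of a gene and its antisense partner cannot be told apart with certainty. For the same reason the share of SLC7A11-AS1 reads that came from unspliced or spliced SLC7A11 RNA was not tested. If only the bases that no other gene covers are taken as length, the FPKM of SLC7A11-AS1 was 4.74 and 4.24 at 5 mM and 0.613 and 0.872 at 25 mM, Huh7 cells first. All reads of the gene were kept for these values. They are therefore raised by the same factor in every library, and reads on shared bases are not removed.

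SLC7A11-AS1 had a lower glucose ratio than SLC7A11 in both lines, with no constant or 0.1 added. Of the reads on both genes, SLC7A11-AS1 held 5.45% (exact binomial interval 4.99 to 5.93) in Huh7 cells at 5 mM and 3.61% (2.92 to 4.42) at 25 mM. In PLC cells it held 6.50% (6.02 to 7.01) and 3.87% (3.03 to 4.88). In both lines the share was higher at 5 mM, and the intervals of the 2 glucose concentrations did not overlap. These intervals hold counting error only, from 1 library per condition, and do not measure a spread between cultures. Both genes were chosen on their glucose ratios, and the strand setting of the counting is not known, so the difference was not tested. The glucose ratio of SLC7A11-AS1 was 0.650 times (0.512 to 0.819) that of SLC7A11 in Huh7 cells, and 0.579 times (0.443 to 0.748) for PLC. As log2 differences these are -0.62 and -0.79. With 0.1 added to the FPKM values they were -0.40 and -0.64, and with 1 added, which is more than the high-glucose level of SLC7A11-AS1, they turned to 0.52 and 0.043. Per kilobase, SLC7A11 was 11.1 and 17.0 times as high as SLC7A11-AS1 at 5 mM and 25 mM in Huh7 cells, and 9.18 and 15.8 times for PLC.

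SLC3A2, the heavy chain, lies at chr11:62856102-62888875 on the plus strand. It had 5767 reads (FPKM 52.3) in Huh7 cells under low and 3969 (25.6) under high glucose, and 22192 (142) and 3292 (39.8) in the PLC libraries. The PLC library at 5 mM stood above the other libraries. The Huh7 ratio was 0.490 (0.470 to 0.509), while the PLC value was 0.280 (0.270 to 0.290). SLC3A2 was thus the gene whose ratio was furthest below its Huh7 value in PLC cells.

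SLC7A5, the light chain for large neutral amino acids such as leucine, lies at chr16:87830023-87869507 on the minus strand. It had 8975 reads (FPKM 88.1) in Huh7 cells under low and 3951 (27.6) under high glucose, and 37352 (259) and 6627 (86.7) in the PLC libraries. Its PLC level at 25 mM was close to its Huh7 level at 5 mM. The ratios were 0.314 (0.301 to 0.325) in Huh7 cells, and 0.335 (0.326 to 0.344) for PLC.

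The heavy chain can be set beside the light chains that bind it, SLC7A5, SLC7A6, SLC7A7, SLC7A8, SLC7A10 and SLC7A11. The FPKM of SLC3A2 was 0.361 and 0.498 times their summed FPKM at 5 mM and 25 mM in Huh7 cells, and 0.473 and 0.370 times for PLC. The heavy chain was therefore relatively higher at 25 mM in Huh7 cells and at 5 mM in PLC cells. SLC7A5 made up 60.8% and 53.7% of the light-chain sum in Huh7 cells, compared with 86.1% and 80.6% for PLC. The share of SLC7A11 was 29.0% and 16.3% in Huh7 cells, compared with 10.4% and 10.3% for PLC.

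SLC7A1 (CAT1), which carries the cationic amino acids arginine, lysine and ornithine, lies at chr13:29509414-29595688 on the minus strand. It had 5431 reads (FPKM 33.0) in Huh7 cells under low and 2486 (10.7) under high glucose, and 23007 (98.8) and 5008 (40.6) in the PLC libraries. The Huh7 ratio was 0.327 (0.310 to 0.341), while the PLC value was 0.411 (0.398 to 0.423). Both PLC libraries were above both Huh7 libraries.

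SLC1A4 (ASCT1) and SLC1A5 (ASCT2) exchange neutral amino acids, ASCT1 among them serine and ASCT2 among them glutamine. SLC1A4, at chr2:64988477-65023865 on the plus strand, had 770 reads (FPKM 5.19) in Huh7 cells under low and 341 (1.63) under high glucose, and 7813 (37.2) and 1178 (10.6) in the PLC libraries. Its highest level was 22.8 times its lowest, the widest range over the 4 libraries among the 10 genes. The ratio was 0.328 in Huh7 cells and 0.286 in PLC cells with 0.1 added, with intervals of 0.276 to 0.358 and 0.267 to 0.302 without it.

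SLC1A5, at chr19:46774883-46788594 on the minus strand, had 4686 reads (FPKM 65.8) in Huh7 cells under low and 4049 (40.4) under high glucose, and 18112 (179.5) and 6122 (114) in the PLC libraries. Its ratios were just inside the study's threshold of 0.67, at 0.615 (0.589 to 0.640) and 0.638 (0.619 to 0.656). Per kilobase, SLC1A5 was 12.7 and 24.7 times as high as SLC1A4 in Huh7 cells, compared with 4.83 and 10.8 times for PLC at 5 mM and 25 mM. In both lines SLC1A4 was thus the lower of the pair and had the lower ratio.

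SLC38A1 (SNAT1) and SLC38A2 (SNAT2) take up glutamine, alanine and other small neutral amino acids with sodium, and lie near each other on chromosome 12. SLC38A1, at chr12:46183063-46270017 on the minus strand, had 18731 reads (FPKM 87.5) in Huh7 cells under low and 18124 (60.2) under high glucose, and 40326 (133) and 12855 (80.0) in the PLC libraries. Its ratio was 0.688 (0.674 to 0.702) in Huh7 cells, just outside the threshold, and 0.602 (0.590 to 0.613) in PLC cells. With TMM scaling, which moves the log2 ratios of all genes by -0.04 in Huh7 and by -0.12 in PLC libraries, the Huh7 ratio of SLC38A1 was 0.669 and fell inside it.

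SLC38A2, at chr12:46358188-46372773 on the minus strand, had 17156 reads (FPKM 123) in Huh7 cells under low and 19180 (97.9) under high glucose, and 30845 (157) and 15271 (146) in the PLC libraries. Its ratios were the nearest to 1 of the 10 genes, at 0.795 (0.778 to 0.811) and 0.934 (0.916 to 0.952). SLC38A2 was 1.41 and 1.63 times as high as SLC38A1 per kilobase at 5 mM and 25 mM in Huh7 cells, compared with 1.18 and 1.83 times for PLC.

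SLC6A9 (GlyT1), a sodium- and chloride-dependent glycine transporter, lies at chr1:43991500-44031467 on the minus strand. It had 736 reads (FPKM 6.56) in Huh7 cells under low and 426 (2.70) under high glucose, and 2011 (12.7) and 496 (5.89) in the PLC libraries. The ratio was 0.420 in Huh7 cells and 0.470 in PLC cells with 0.1 added, with intervals of 0.364 to 0.464 and 0.421 to 0.514 without it. The Huh7 level at 5 mM was near the PLC level at 25 mM.

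**Figure D2:**
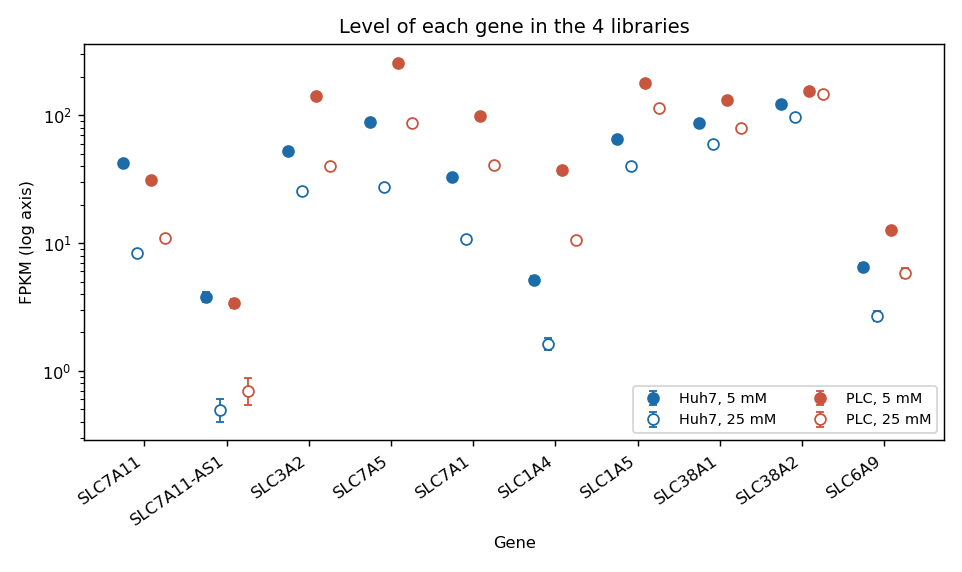
FPKM of each gene (log axis) in the 4 libraries, with filled points at 5 mM and open points at 25 mM glucose and bars as exact 95% Poisson intervals of the counts. All 10 genes were lowest in Huh7 cells at 25 mM, and 8 were highest in PLC cells at 5 mM. The genes had been chosen on their level at 25 mM relative to 5 mM.

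Over the 4 libraries, all 10 genes had their lowest FPKM in Huh7 cells at 25 mM. A lowest value at 25 mM and a highest value at 5 mM are partly set by the way the genes were chosen. The share of all genes with this pattern was not calculated. Of the 10 genes, 8 were highest in PLC cells at 5 mM, and the other 2, SLC7A11 and SLC7A11-AS1, were highest in Huh7 cells at 5 mM. The order of the levels was led by SLC38A2 in 3 libraries and by SLC7A5 in PLC cells at 5 mM. SLC7A5 stood in the second place in Huh7 cells at 5 mM and in the fourth at 25 mM. SLC7A5 and SLC38A1 in Huh7 cells at 5 mM (88.1 and 87.5), SLC7A1 and SLC3A2 in PLC cells at 25 mM (40.6 and 39.8) and SLC7A11 and SLC1A4 there (11.1 and 10.6) were neighbours whose counting intervals overlapped. No other neighbours in the order had overlapping intervals. Other genes lie on the opposite strand over exons of 5 of the 10 genes: besides the SLC7A11 pair, SLC1A5 shares 780 exon bases with AC008622.2, which had 1 to 4 reads in each library, and SLC6A9 shares 413 with CCDC24, which had 53 to 154. SLC7A5 shares 271 with AC126696.2 (2 to 31 reads), and SLC7A11-AS1 shares 363 with LINC00616 (0 to 6 reads).

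With the study's thresholds, an FPKM over 0.5 in at least 1 library of the line and a ratio under 0.67, 8 of the 10 genes were lower at 25 mM in Huh7 cells, where 13.7% of 21864 genes were. In PLC cells 9 of the 10 were lower, where 17.0% of 21749 genes were. In both lines 8 were lower, against 3.82% of 18108 genes, and of the 9 transporter genes 7 were, against 1.97% of 10601 protein-coding genes. These counts are set by the way the genes were chosen. SLC38A2 was not past the threshold in either line, and SLC38A1 only in PLC cells. The median ratio was 0.371 in Huh7 and 0.383 in PLC cells over the 10 genes, against 1.03 and 1.08 over all genes.

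**Figure D3:**
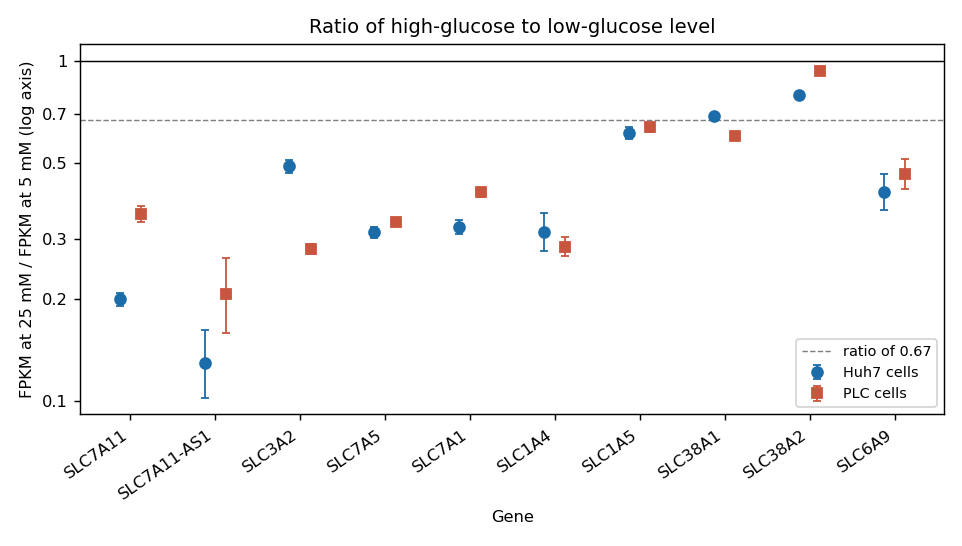
Ratio of FPKM at 25 mM to FPKM at 5 mM (log axis, no constant added) for each gene in Huh7 cells (circles) and PLC cells (squares), with exact 95% counting intervals and a dashed line at 0.67. All 20 ratios were below 1, and SLC7A11 and SLC3A2 had the widest gaps between the lines, in opposite directions.

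The size of the ratio differed between the lines in a gene-dependent way, as the plot of ratios shows. For SLC7A11 the PLC ratio was 1.79 times (1.67 to 1.91) the Huh7 ratio, and for SLC7A11-AS1 it was 1.59 times (1.12 to 2.25). For SLC3A2 it was 0.572 times (0.542 to 0.605). Intervals above 1 were also found for SLC7A5 (1.07), SLC7A1 (1.26) and SLC38A2 (1.18), and an interval below 1 for SLC38A1 (0.875). The intervals of SLC1A4 (0.783 to 1.04), SLC1A5 (0.987 to 1.09) and SLC6A9 (0.967 to 1.32) included 1. These intervals hold counting error only, and with 1 library per condition the difference between the lines has no replicate check.

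The level difference between the lines was not part of the choice of the genes. It was tested on counts with edgeR's quasi-likelihood test, with glucose as a block and Benjamini-Hochberg adjustment over 23217 genes. The residual of this fit is how far the glucose changes of the 2 lines differ. The genes were chosen on their glucose changes, so the test is not fully independent of the choice. Of the 10 genes, 7 were higher in PLC cells and 0 in Huh7 cells, where 0 were higher also at an unadjusted p under 0.05 and by DESeq2 or limma. Over all genes tested, 21.1% were higher and 21.8% were lower in PLC cells. SLC1A4 had the largest log2 fold change, 2.77 (SE 0.24, edgeR adjusted p = 8.91e-07). SLC7A1 (1.75, SE 0.20, edgeR adjusted p = 1.52e-05), SLC7A5 (1.61, SE 0.19, edgeR adjusted p = 1.94e-05) and SLC1A5 (1.48, SE 0.20, edgeR adjusted p = 5.76e-05) came next. The heavy chain SLC3A2 was higher by 1.05 (SE 0.24, edgeR adjusted p = 0.00299), SLC6A9 by 1.04 (SE 0.25, edgeR adjusted p = 0.00433) and SLC38A1 by 0.51 (SE 0.18, edgeR adjusted p = 0.0381).

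The light chain SLC7A11 did not pass the test, with a log2 difference of -0.01 and a 95% interval of -0.51 to 0.49 (edgeR adjusted p = 0.972). Its FPKM was lower in PLC than in Huh7 cells at 5 mM and higher at 25 mM (0.740 and 1.32 times), so its values at the 2 concentrations lay on either side of equal levels. SLC7A11-AS1 (0.15, interval -0.54 to 0.84, edgeR adjusted p = 0.739) and SLC38A2 (0.47, interval 0.072 to 0.86 before adjustment, edgeR adjusted p = 0.0547) also missed the threshold. Each line had 2 libraries, at different glucose concentrations, and nothing in the labels says that more than 1 culture of a line was used per condition. The fit leaves 1 residual degree of freedom, so the SE rests largely on variance shared across genes. The SE, intervals and p-values of this test therefore do not measure a spread between cultures. Without glucose as a block, 2 of the 10 genes passed.

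**Figure D4:**
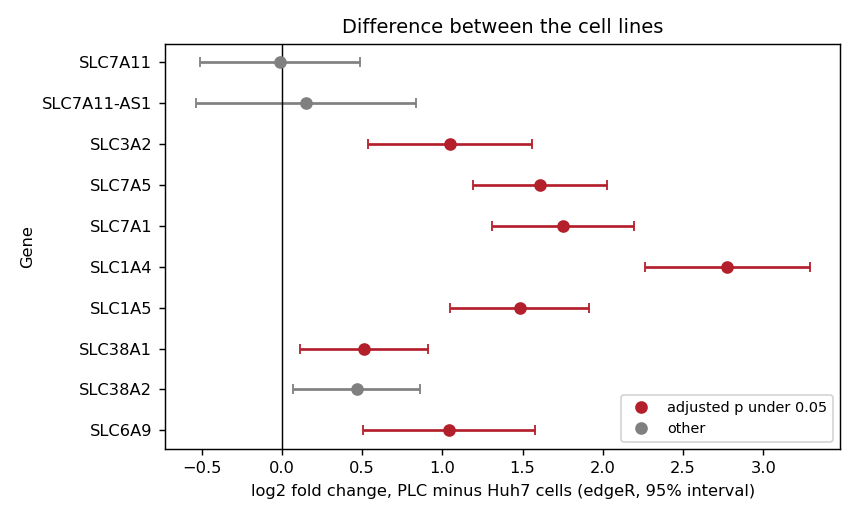
Log2 fold change between the lines (PLC minus Huh7) of each gene from edgeR with glucose as a block, with 95% intervals before adjustment and genes of adjusted p under 0.05 in red. The 7 genes that passed were all higher in PLC cells, and the interval of SLC7A11 was centred near 0. The intervals do not measure a spread between cultures.

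Other amino acid transporters of the plasma membrane and the lysosome were examined as a list of 43 genes, of which 30 had enough reads for the test of a glucose change shared by both lines (edgeR, with the line as a block). With edgeR, 0 of the 30 passed the threshold in either direction, while 5 were lower and 3 higher at an unadjusted p under 0.05, where 1013 and 962 of all 23217 genes were. By limma 0 passed, where 76 of all genes were lower and 16 higher. By DESeq2 1 was lower, SLC43A1, where 131 of all genes were lower. Over all 23217 genes, 0.314% were lower and 0.0646% higher at 25 mM (73 and 15 genes). The median log2 fold change of the 30 genes was -0.07, and that of all genes was -0.01. The lines are the only repeats in this test, which leaves 1 residual degree of freedom. The 10 genes, chosen on their glucose ratios, are not on this list. A low count of changes in the list is therefore partly set by that choice. On simulated data the fit recovered 10.5% of 2-fold glucose changes, so 0 passing does not show that no gene changed.

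Among these other transporters, SLC43A1 (LAT3, which carries large neutral amino acids without a heavy chain) had an FPKM of 66.1 and 36.3 in Huh7 cells, compared with 19.98 and 12.2 for PLC, low glucose first. Its ratios of 0.550 and 0.615 were below the threshold of 0.67 in both lines, and its log2 fold change was -0.87 (SE 0.22, edgeR adjusted p = 0.131). SLC6A6, the taurine transporter, had higher levels at 25 mM in both lines, from 21.0 to 38.2 in Huh7 cells and from 7.85 to 12.3 in PLC cells, with ratios of 1.81 and 1.56 (log2 fold change 0.68, SE 0.21, edgeR adjusted p = 0.273). SLC38A11 had ratios of 2.08 and 4.81 at a low level, with an FPKM of at most 2.84, and was named after its values were seen (log2 fold change 1.73, SE 0.39, edgeR adjusted p = 0.0904). The other members of the SLC38 family that reached an FPKM over 5 were SLC38A3, SLC38A4, SLC38A6, SLC38A7 and SLC38A10, with edgeR adjusted p between 0.363 (SLC38A7) and 0.971 (SLC38A10). In Huh7 and PLC cells the ratios were 0.749 and 0.462 for SLC38A3, 0.456 and 0.863 for SLC38A7 and 0.638 and 1.09 for SLC38A6. They were 1.63 and 1.21 for SLC38A4 and 0.963 and 1.38 for SLC38A10. The lysosomal transporters SLC66A1, for cationic amino acids, and CTNS, for cystine, had ratios of 0.671 and 0.691 and of 0.703 and 0.714 in Huh7 and PLC cells. SLC7A6, a light chain of SLC3A2, had ratios on either side of 1 in the 2 lines, 1.10 and 0.718. SLC7A2 and SLC7A10 had ratios of 0.878 and 1.05 in Huh7 cells, where their FPKM was over 5. The proton-coupled transporter SLC36A1 had ratios of 0.951 and 0.973 in Huh7 and PLC cells. SLC36A4, also proton-coupled, had ratios of 1.19 and 1.19, and its FPKM was over 5 only in PLC cells.

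**Figure D5:**
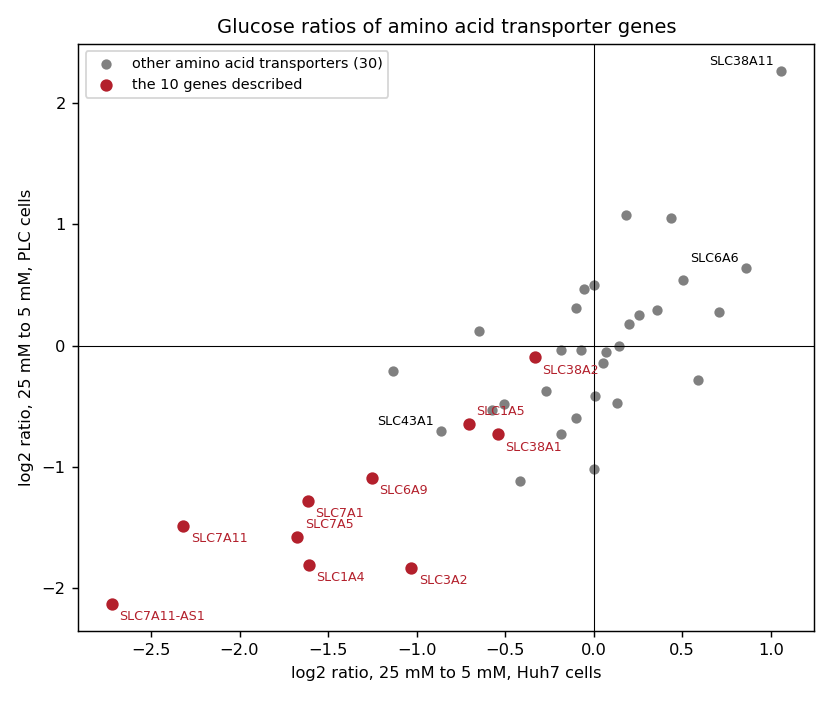
Log2 ratio of level at 25 mM to 5 mM glucose (0.1 added) in Huh7 cells against PLC cells, for the 10 genes described (red) and the 30 other amino acid transporters tested (grey), with 1 point per gene. The red points were chosen for these ratios, and all lie below 0 in both lines.

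Of 10 mitochondrial carriers of amino acids, all were tested and 0 passed in either direction by edgeR, with 0 at an unadjusted p under 0.05 in either direction, 0 by DESeq2 or limma and a median log2 fold change of -0.01. Among 9 genes of cystine and glutathione metabolism, 2 fell and 0 rose, against 0.314% and 0.0646% of all 23217 genes. CHAC1, which breaks down glutathione, fell by 3.82 on the log2 scale (SE 0.35, edgeR adjusted p = 0.000429), and CTH, which makes cysteine from cystathionine, fell by 1.696 (SE 0.27, edgeR adjusted p = 0.018). The enzymes of glutathione synthesis, GCLC (-0.80), GCLM (-0.78) and GSS (-0.21), did not pass the test (edgeR adjusted p = 0.221, 0.16 and 0.918). At an unadjusted p under 0.05, 5 of the 9 genes were lower, GCLC and GCLM among them, where 1013 of all 23217 genes were. By DESeq2 3 were lower, where 131 of all genes were, and by limma 2, where 76 were.

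Of 10 genes of amino acid sensing upstream of mTORC1, 9 were tested, 3 fell and 0 rose, against 0.314% and 0.0646% of all genes. These were SESN2, a leucine sensor (-2.13, SE 0.24, edgeR adjusted p = 0.00183), DDIT4, an inhibitor of mTORC1 (-2.55, SE 0.31, edgeR adjusted p = 0.00287), and RRAGD, a Rag GTPase (-1.41, SE 0.23, edgeR adjusted p = 0.0198). The median log2 fold change of the 9 was -0.79. At an unadjusted p under 0.05, 5 of them were lower, where 1013 of all 23217 genes were. By DESeq2 4 were lower, where 131 of all genes were, and by limma 3, where 76 were.

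Of 16 ATF4 targets that are no transporters, 12 fell and 0 rose, against 0.314% and 0.0646% of all genes, and the median log2 fold change was -1.67. CHAC1, SESN2 and DDIT4 are also on the lists above. Examples are ASNS, which makes asparagine (-2.47, SE 0.38, edgeR adjusted p = 0.0158), PHGDH, the first enzyme of serine synthesis (-1.28, SE 0.24, edgeR adjusted p = 0.042), and TRIB3, an inhibitor of ATF4 itself (-2.17, SE 0.23, edgeR adjusted p = 0.00128). The serine and folate enzymes PSAT1, MTHFD2 and ALDH1L2, the transcription factors ATF3 and CEBPB and the lipoprotein receptor VLDLR also fell, with log2 fold changes from -1.11 (PSAT1) to -3.01 (ATF3). PSPH, SHMT2, DDIT3 and ATF5 did not pass. Of 12 NRF2 targets, 11 were tested, 1 fell and 0 rose, with 7 lower at an unadjusted p under 0.05 (1013 of all 23217 genes) and a median log2 fold change of -0.78. By DESeq2, 5 NRF2 targets and 13 ATF4 targets were lower, where 131 of all genes were. By limma 1 and 12 were, where 76 of all genes were. The gene that fell was HMOX1, which breaks down haem (-1.76, SE 0.25, edgeR adjusted p = 0.0093). Of all 23217 genes, 11889 had a log2 fold change below 0, as had all 11 NRF2 targets tested, from -0.01 (TALDO1) to -1.76 (HMOX1). Between these were NQO1 with -0.23 (edgeR adjusted p = 0.879) and TXNRD1 with -1.28 (edgeR adjusted p = 0.147). These lists were written with earlier results of the same libraries known, so their counts are no independent evidence of a direction. In the lists of cystine and glutathione genes, sensing genes, ATF4 targets and NRF2 targets, 0 genes were higher at an unadjusted p under 0.05, and 0 by DESeq2 or limma.

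The genes whose pattern over the 4 libraries was most like that of SLC7A11-AS1 were found by the distance between centred log2 CPM values (reads scaled to the library total, 0.1 added) among 17349 genes with at least 100 reads in all. They were TRIB3 (distance 0.600), SH3BP2 (0.621), UNC5B (0.639), AP006545.1 (0.6699) and SLC7A11 itself in the fifth place (0.702). For SLC7A11 the nearest were TRIB3 (0.255), UNC5B (0.483), AP006545.1 (0.513), AL365318.1 (0.547) and GUCA1B (0.599), and SLC7A11-AS1 came in the eighth place. TRIB3 had 7923 and 2115 reads in the Huh7 libraries, and 8042 and 1246 in the PLC libraries. SH3BP2 had 1685 and 257 reads in the Huh7 libraries and 1514 and 130 in the PLC libraries, with ratios of 0.108 and 0.162 that were lower than those of SLC7A11-AS1. A pattern over 4 libraries has few degrees of freedom, and the likeness is a description without a test.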

How the data were processed

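RNA of Huh7 and PLC cells at 5 mM and 25 mM glucose was sequenced from rRNA-depleted, directional libraries, 1 per condition. The authors deposited raw counts per gene, as whole numbers. Per the submitters' processing notes, HISAT2, featureCounts and hg38 were used, with versions and the strand setting not given in the sources used here. Samples were grouped by their titles. The table held 59657 data lines, of which 5 broken lines of ANK2 were left out. Totals of 16049686 to 30279716 reads set the counting error.

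FPKM was calculated from count, gene length and library total. Ratios had 0.1 added to both values. Intervals of ratios and shares are exact binomial (Clopper-Pearson) 95% intervals and those of levels exact Poisson intervals, and all intervals hold counting error only. Ratios between lines used the exact conditional odds ratio. Differences between lines and glucose changes shared by the lines were fitted with edgeR 4.0.16 (quasi-likelihood, line plus glucose, TMM, filterByExpr, 23217 genes). Alternatives were limma 3.58.1 voom, DESeq2 1.42.0, RLE size factors, other filters, no block, other constants and thresholds, and TMM or DESeq2 scaling of ratios. The fit was tested on simulated data: with 200 of 23217 genes changed 2-fold, 10.5% were recovered for glucose and 16% for the line (1 and 1 false calls), and with 4-fold changes 72% and 74% (9 and 7 false calls). Apart from the 200 changed genes, each simulated gene had the same mean level in all libraries. The simulation thus held no glucose response that differs between the lines, and its false-call counts do not carry over to these data.

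The genes and lists were chosen with earlier results of these data known. Named genes were the 10 genes, listed genes past the edgeR threshold, other transporters with an FPKM over 5, genes overlapping an exon of the 10, and the 5 genes most like SLC7A11 and SLC7A11-AS1. Promoters are those of RefSeq (GRCh38.p14).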

Additional observations from a re-analysis of the deposited data

Results flagged for a closer look

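Among the listed genes with an FPKM over 5 in any library, 2 carriers, SLC7A6 and SLC25A18, had ratios that lay on opposite sides of 1 in the 2 lines, with counting intervals that did not reach 1. For SLC7A6, a light chain that pairs with SLC3A2, the ratio of level at 25 mM to 5 mM was 1.10 (1.02 to 1.19) in Huh7 cells, while the PLC value was 0.718 (0.647 to 0.787). SLC25A18, a mitochondrial glutamate carrier named after its values were seen, went the other way, with 0.620 (0.538 to 0.698) in Huh7 cells and a PLC value of 1.85 (1.44 to 2.82) from 72 and 77 reads. With 1 library per condition, these differences were not tested against a spread of replicates.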

How the results depend on the processing

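The 10 genes had ratios below 1 in both lines under each of 4 alternatives, no constant, 1 added, TMM scaling and DESeq2 size factors. Of these 80 values, 54 lay within the counting interval of the value reported and 26 outside it. The count of genes lower at 25 mM was 7 with a ratio under 0.5 in each line, and 9 in each line with TMM scaling. The log2 difference of SLC7A11-AS1 from SLC7A11 reversed with 1 added, to 0.52 in Huh7 cells and 0.043 in PLC cells, because the constant exceeds the high-glucose level of SLC7A11-AS1. Genes with a shared glucose change, 73 lower and 15 higher, numbered 284 and 242 without the filter on low counts, 27 and 0 with at least 10 counts in every library, 0 and 0 without the line as a block, and 131 and 63 by DESeq2. Other transporters, 0 lower and 0 higher, numbered 1 (SLC43A1, log2 -0.88) and 1 (SLC38A11, 1.72) without the filter, and 1 lower (SLC43A1) by DESeq2. Genes higher in PLC cells, 7 of 10, numbered 2 without glucose as a block and 6 to 8 under the other alternatives. The cause of these shifts was not tested. With no replicates, no library could be left out, and SLC7A11-AS1, with 69 and 91 reads at 25 mM, is the gene whose values the depth limits most. The line as a block pairs the 2 glucose concentrations within a line, and no further pairing could be made.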
